A study of Mus musculus with 4 samples.

Results

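Among the HNF4A peaks that colonic epithelium kept through chemical colitis, 1866 moved up in the ranking of peak strength. They were chosen by peak score and rank in the 2 lists compared. The lists held 17886 HNF4A peaks in mice given water and 10688 in mice given dextran sulfate sodium (DSS). A member is a water peak outside the top 10% of its list (a deposited score below 20.79507) that overlapped a DSS peak by at least 1 bp. The rank percentile of that DSS peak in its own list, where 100 is the strongest, exceeded that of the water peak in the water list by 10 points or more. Where several DSS peaks overlapped, the one with the most overlap was used, and the mitochondrial chromosome was left out. Of 16093 water peaks under the score ceiling, 7714 overlapped a DSS peak, and 24.2% of these 7714 were members.

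The study profiled scraped colonic epithelium of adult mice, 2 to 4 months old, by ChIP-seq, in which chromatin is pulled down with an antibody and its DNA sequenced. Antibodies to HNF4A and to H3K27ac were each used on mice given water only and on mice given 3% DSS for 6 days. Each of the 4 groups had 1 library, so no difference between water and DSS has a replicate check and no p-value is given. Ranges given as intervals are at 95% and reflect counting error alone. They count peaks or regions that overlap each other as separate, which makes them too narrow. The labels give no strain, sex or genotype, and do not say whether animals were pooled.

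HNF4A, a transcription factor of the nuclear receptor family, binds as a dimer at repeated hexamer sites and drives genes of the differentiated intestinal epithelium, such as those of nutrient transport and the brush border. DSS injures the colonic lining, and the epithelium is partly lost and regenerates. H3K27ac, an acetylation of histone H3, marks active enhancers and promoters. In scraped tissue, a stronger peak through more binding per cell and one through more cells with the bound site cannot be told apart.

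The ranks chose the members, so their ranks are a description. In the water list their scores ran from 4.21 to 18.87 with a median of 7.72, and in the DSS list from 6.82 to 89.62 with a median of 13.85. These are the authors' own peak scores, whose kind the files do not state, and they serve here to place a peak within its own list. The median member stood at percentile 31.3 in water (quartiles 14.3 and 51.9) and at percentile 67.2 in DSS (quartiles 49.8 and 81.5). The median gain was 24.7 points (quartiles 15.9 and 39.4), and the largest was 97.0. A gain of 30 points or more was found in 719 members and one of 50 or more in 289. From below percentile 50 in water to above it in DSS moved 880 members, and 203 reached the top 10% of the DSS list.

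Falls were more frequent than gains on percentiles of the full lists. Among the 7714 shared peaks, 3672 fell by 10 points or more (47.6%), and 2176 stayed within 10 points. The median change over all of them was -8.3 points, and shared peaks sat higher in the longer water list (median percentile 62.0) than in the DSS list (49.2). A low start leaves more room for a gain. In the lowest of 4 equal bins of water percentile under the ceiling (0 to 22.6) 70.8% of 962 shared peaks were members, against 6.08% of 3255 in the highest bin (67.5 to 90). Of the members, 1140 (61.1%) ranked below the 10688 highest water peaks. With the water list held to that length, 726 of the 1866 remained members, and the split turned to 2359 gains and 1769 falls. With percentiles taken among shared pairs alone it was 2935 gains and 2557 falls, and 1856 of the 1866 members were among these gains. The median change over shared peaks was then 4.0 and 2.1 points, so the balance of gains and falls turned with how the lists were put on 1 scale. The percentiles among shared pairs also ranked the peaks over the ceiling, which are not in this split. Those hold the top water ranks and as a set cannot gain, so peaks under the ceiling lean to gains by construction.

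**Figure D1:**
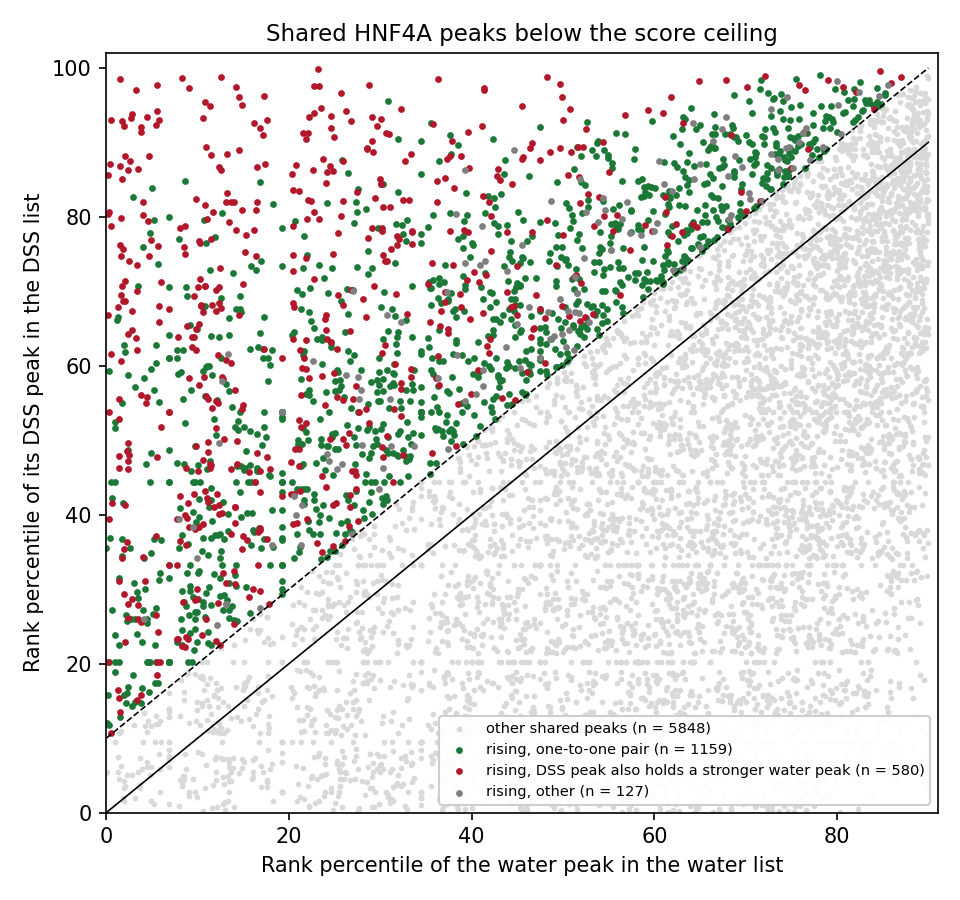
Rank percentile of each shared HNF4A peak under the score ceiling in the water list (horizontal axis) and of its paired peak in the DSS list (vertical axis). The solid line marks equal percentiles and the dashed line a gain of 10 points; the 1159 green members are one-to-one pairs, and the 580 red members, which fill the upper left corner, have a DSS peak that a stronger water peak also overlaps.

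The way the peaks met divided the members into 3 kinds. In 1159 members (62.1%, interval 59.9 to 64.3) the water peak overlapped a single DSS peak and that DSS peak overlapped no other water peak; these are called one-to-one. In 580 members (31.1%, 29.0 to 33.2) the DSS peak was also overlapped by a water peak with a higher score than the member. The other 127 members had further overlaps but no stronger water peak on their DSS peak. A stronger water peak on the same DSS peak was found for 4.96% of falling peaks (4.30 to 5.71) and 9.56% of peaks within 10 points (8.39 to 10.9).

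For most of the 580 members beside a stronger peak, the DSS peak did not also stand 10 points or more above that stronger peak. The stronger water peak stood at a median percentile of 77.7 (quartiles 61.0 and 90.4), and against it the DSS peak had changed by a median of -4.7 points (quartiles -17.2 and 3.8). It had gained 10 points or more over the stronger peak as well in 101 of the 580 (17.4%), changed by less than 10 points in 261, and fallen by 10 or more in 218. In 149 of the 580 the stronger peak was over the score ceiling, where a gain of 10 points was not possible. Among those 101, a member on chromosome 8 (35087686 to 35088285, scores 4.41 and 12.7) gained 61.1 points, and its DSS peak stood 48.3 points above the stronger water peak (35087975 to 35088574, score 6.36). Counted by DSS peak, the members rest on 1748 peaks, of which 1289 (73.7%, 71.6 to 75.8) stood at least 10 points above the highest water peak they overlapped. Another 88 stood above it by less, and 371 stood level with it or below. A highest water peak over the ceiling left no room for 10 points here either. Among members, 230 shared their DSS peak with another member.

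The share beside a stronger peak grew with the gain. It was 14.9% of members that gained 10 to 20 points (interval 12.4 to 17.8), 40.7% of those that gained 30 to 50 (36.2 to 45.4) and 91% of the 78 that gained 70 or more (82.6 to 95.6). All 34 gains of 80 points or more were of this kind. Both the gain and the pairing come from the same peak lists, so this is a description of how the rule works on them.

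**Figure D2:**
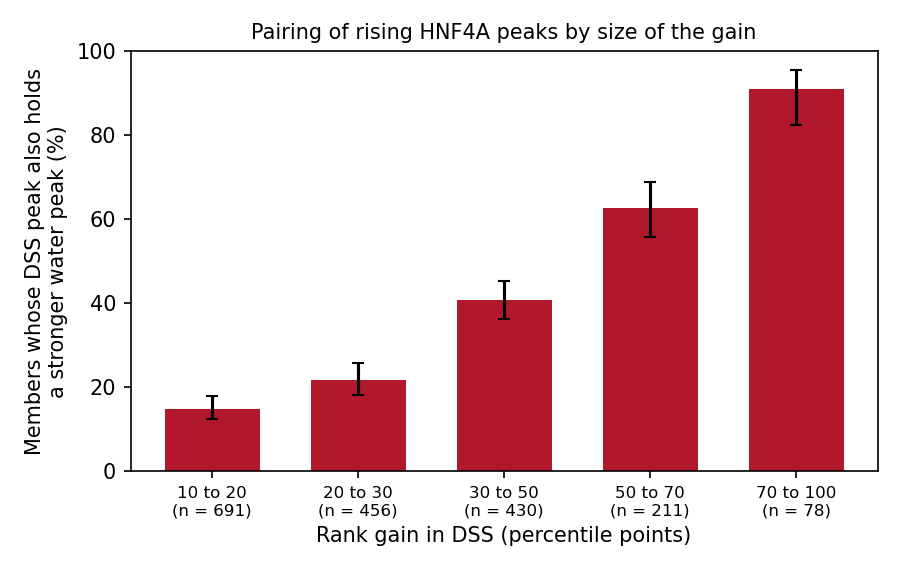
Share of rising HNF4A peaks whose DSS peak is also overlapped by a higher-scoring water peak (vertical axis, percent, bars from 0) in bins of rank gain (horizontal axis, percentile points), with Wilson 95% intervals. The share goes from 14.9% in the lowest bin to 91% in the highest.

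The 15 largest gains show this pattern without exception: each of the 15 had a stronger water peak on its DSS peak. The largest lay on chromosome 3 (101200212 to 101200811, build mm9), with a score of 4.73 in water (rank 17622, percentile 1.5) and 46.8 in DSS (rank 158, percentile 98.5). Its DSS peak (101199877 to 101200476) was centred 335 bp away. A second water peak at 101199895 to 101200494, with a score of 34.6 (percentile 97.9), lay almost on top of that DSS peak, and against it the gain was 0.6 points. The member was thus a weak peak on the flank of a site that already stood high in water.

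The next largest gains repeated this layout. On chromosome 10 (59091308 to 59091907) a member went from a score of 5.30 in water to 37.9 in DSS, a gain of 93.8 points, beside a water peak of score 54.4 against which the DSS peak was 2.6 points lower (change -2.6). On chromosome 4 (116122680 to 116123279) the scores were 4.45 and 27.7 and the gain 92.5 points, and the stronger water peak had the same score of 27.7 as the DSS peak (change -2.6). In both places the stronger water peak began within 15 bp of the DSS peak. A pair of cases on chromosome 1 differed from each other. At 91378044 to 91378643 the scores were 4.94 and 27.6 (gain 91.2), and the change against the stronger water peak was 2.3 points. At 90002098 to 90002697 the scores were 5.54 and 41.3 (gain 92.2), and here the stronger water peak (90002624 to 90003223, rank 2587, percentile 85.5) was itself a member, with a gain of 12.2 points.

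The members that ended highest in the DSS list were mostly flanking peaks too: 9 of the 10 highest had a stronger water peak on the same DSS peak. The highest lay on chromosome 1 (127346981 to 127347580), with scores of 7.04 in water and 89.6 in DSS (rank 20, percentile 99.8). Its DSS peak began 1 bp from a water peak of score 55.6 at percentile 99.7. The member also overlapped a water-enriched H3K27ac region. Members on chromosome 9 (3026041 to 3026640, scores 17.5 and 71.1) and chromosome 4 (3017628 to 3018227, scores 13.1 and 50.9) lay within 200 kb of the first peak listed on their chromosomes, each beside a stronger water peak. In all, 14 members lay in such stretches, and no list of problematic regions was applied to them. A member on chromosome 15 (61281266 to 61281865) had scores of 18.9 and 50.5 beside a water peak of score 39.9.

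The exception among the 10 was a one-to-one pair on chromosome 11 (20924471 to 20925070). It had a score of 14.9 in water (rank 3903, percentile 78.2) and 54.9 in DSS (rank 100, percentile 99.1), and the peak centres were 8 bp apart. One-to-one pairs on chromosome 11 (86163564 to 86164163, scores 14.1 and 46.4) and chromosome 8 (58824776 to 58825375, scores 13.0 and 45.8) reached percentiles 98.5 and 98.4 in DSS. All 3 were already in the upper part of the water list, at percentiles between 71.7 and 78.2.

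One-to-one pairs are the members in which the gain belongs to a single water peak and a single DSS peak. Their centres lay within 100 bp of each other in 91.5%, so not every pair need be the same site. They were 19.7% of the 5869 one-to-one shared peaks under the ceiling, where 51.1% fell. Their median percentile was 36.8 in water (quartiles 19.2 and 57.3) and 65.1 in DSS (quartiles 49.5 and 79.7), with a median gain of 21.7 points. The gain was 30 points or more in 319 and 50 or more in 86, and 104 reached the top 10% of the DSS list. From below percentile 25 in water to above percentile 75 in DSS moved 18 one-to-one pairs, against 107 members beside a stronger peak.

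The one-to-one pairs of largest gain, chosen after the pairing had been seen, were peaks near the bottom of the water list. The first lay on chromosome 11 (107435194 to 107435793), with scores of 5.27 in water (rank 17354, percentile 2.9) and 19.0 in DSS (rank 1860, percentile 82.6), a gain of 79.7 points. On chromosome 14 (35592096 to 35592695) the scores were 5.48 and 19.7 and the gain 78.8 points. On chromosome 17 (43624805 to 43625404) they were 5.79 and 20.2, with a gain of 76.3 points. These pairs had their centres 4, 41 and 42 bp apart, a small part of the 600 bp width of each peak. The next lay on chromosome 19 (53201916 to 53202515, gain 74.4) and chromosome 16 (56881553 to 56882152, gain 73.1), with centres 6 and 25 bp apart. Of the 10 one-to-one pairs of largest gain, 9 had centres under 100 bp apart, and 0 of these 10 overlapped an H3K27ac region of either list. Over all 1159 one-to-one members the shares were 3.19% on water-enriched and 1.73% on DSS-enriched regions, so 0 of 10 does not set these apart.

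At the limits of the rule, members and others lay side by side. The members just inside the limit were on chromosome 14 (14794861 to 14795460 and 51684632 to 51685231) and chromosome 8 (122075471 to 122076070), with gains of 10.02, 10.03 and 10.04 points. The shared peaks just outside it were on chromosome 4 (55744326 to 55744925, just under 10 points), chromosome 16 (38298000 to 38298599, change 9.99) and chromosome 9 (70321145 to 70321744, change 9.97). Under the score ceiling the strongest member was the one on chromosome 15 given above, at water percentile 87.1. Of the 1749 shared peaks at or over the ceiling 0 gained 10 points or more, since a peak that begins at percentile 90 or above has no more room than that.

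The rule asked for an overlap but not for a position, so the distance between peak centres was open. Members had their centres a median of 47.0 bp apart (interval 44.0 to 51.0), falling peaks 33 bp (31 to 34) and peaks within 10 points 30 bp (28 to 31). Centres lay within 100 bp of each other in 66.9% of members (64.8 to 69.0), against 88.3% of falling peaks (87.3 to 89.3). This difference was found in the members beside a stronger peak, where the median distance was 244.0 bp (234.0 to 259.0) and 15% had centres within 100 bp (12.3 to 18.1). In one-to-one pairs the medians were 30 bp (28 to 32) for rising and 30 bp (29 to 32) for falling peaks, and 91.5% (89.8 to 93.0) and 92.4% (91.4 to 93.3) lay within 100 bp. In one-to-one pairs the intervals of rising and falling sites thus overlapped.

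**Figure D3:**
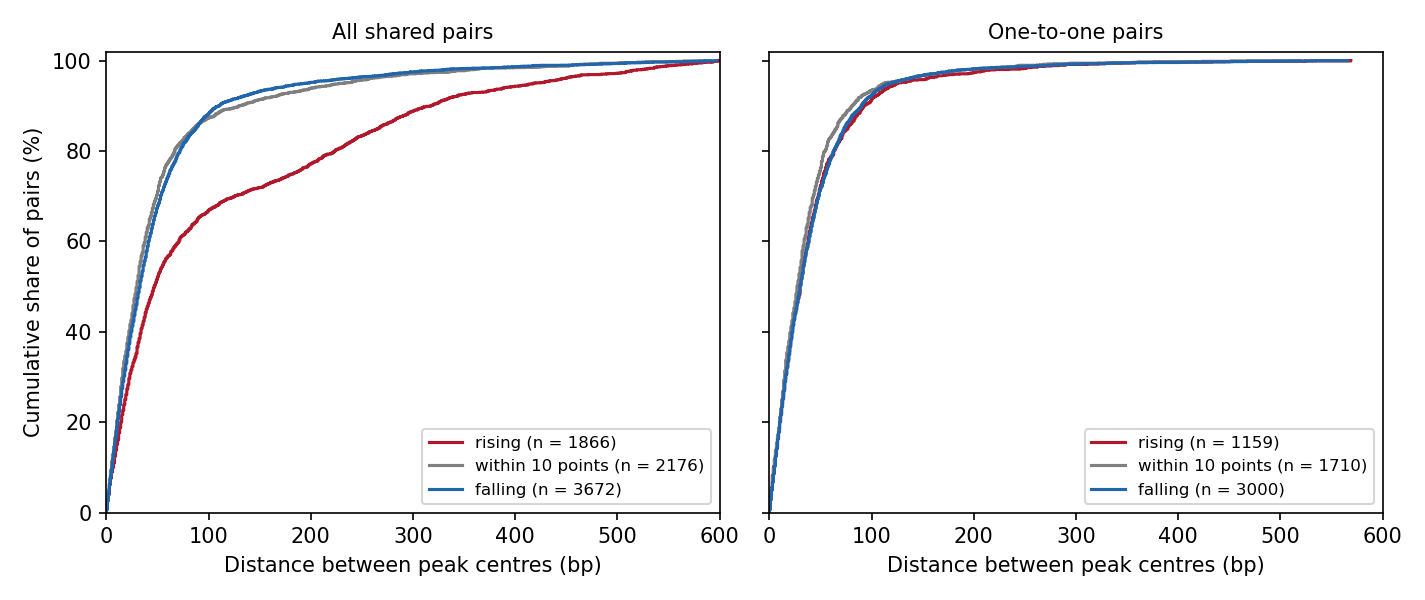
Cumulative share of shared HNF4A peaks (vertical axis, percent) by the distance between the centres of the water and DSS peaks (horizontal axis, bp), for all pairs (left) and one-to-one pairs (right). The rising curve lies below the others on the left, with 66.9% within 100 bp, and on the right all 3 curves run together, with 91.5% of rising and 92.4% of falling pairs within 100 bp.

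H3K27ac was measured in separate libraries and took no part in choosing the members. The authors deposited the 1000 regions most enriched for H3K27ac in water and the 1000 most enriched in DSS, away from an unnamed feature. Of the members, 68 (3.64%, interval 2.88 to 4.59) overlapped a water-enriched region and 30 (1.61%, 1.13 to 2.29) a DSS-enriched region, and 0 overlapped both. Over all 17880 water peaks outside the mitochondrial chromosome the shares were 2.51% and 1.17%. Peaks that gained rank in DSS lay more often on water-enriched than on DSS-enriched regions. So did falling peaks, peaks within 10 points, water-only peaks and peaks over the ceiling.

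Pooled over water percentiles, in which the classes differ, rising and falling peaks did not differ beyond counting error in either share. The share on water-enriched regions was 2.72% of falling peaks (2.24 to 3.30), a difference of 0.921 points (-0.0335 to 1.98). On DSS-enriched regions it was 1.28% (0.964 to 1.70), a difference of 0.328 points (-0.308 to 1.08). In one-to-one pairs the differences were 0.559 points (-0.517 to 1.84) and 0.392 points (-0.379 to 1.38). Leaving out windows of 100 kb crowded with 10 or more water peaks, or the weakest 10% of each list, moved the interval on water-enriched regions off 0, to 0.0515 to 2.10 and 0.176 to 2.37. In the highest bin of water percentile, 5.56% of rising peaks and 2.88% of falling peaks lay on water-enriched regions. The difference was 2.68 points (0.114 to 6.84). From the lowest bin up, the other 3 differences were 0.616, 1.60 and 1.49 points. These were also higher in rising peaks, but their intervals held 0. With regions counted within 2 kb, the interval in the highest bin held 0 too (2.25 points, -0.615 to 6.66). Of peaks within 10 points in the highest bin, 4.12% lay on water-enriched regions. Rising peaks differed from these by 1.43 points (-1.36 to 5.68). For DSS-enriched regions the interval of rising minus falling peaks held 0 in each of the 4 bins. Against peaks within 10 points it lay above 0 in the highest bin alone (3.03% and 1.15%, 1.88 points, 0.0378 to 5.34). With regions within 2 kb it held 0 there (2.46 points, -0.0964 to 6.54).

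Members did lie on both kinds of region more often than water peaks that had no DSS peak at all. Of 8379 such water-only peaks under the ceiling, 1.79% lay on water-enriched regions (1.53 to 2.10) and 1.03% on DSS-enriched regions (0.832 to 1.27). The differences from members were 1.85 points (1.03 to 2.84) and 0.581 points (0.0456 to 1.29). For water-enriched regions the interval lay above 0 in each of the 4 bins of water percentile, with differences between 1.14 and 3.04 points. For DSS-enriched regions it did so in the highest bin (2.24 points, 0.358 to 5.69), and in the other 3 it held 0. With regions counted within 2 kb, the interval on water-enriched regions held 0 in the lowest bin (-0.144 to 2.94) and the highest (-0.122 to 7.47). That on DSS-enriched regions then lay above 0 in the lowest bin (0.828 to 3.90) and held 0 in the highest (-0.277 to 6.51), so the bins were not stable to this choice. Falling peaks, at the 2.72% given above, also lay above the interval of water-only peaks, so the higher share on water-enriched regions was shared by both directions.

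**Figure D4:**
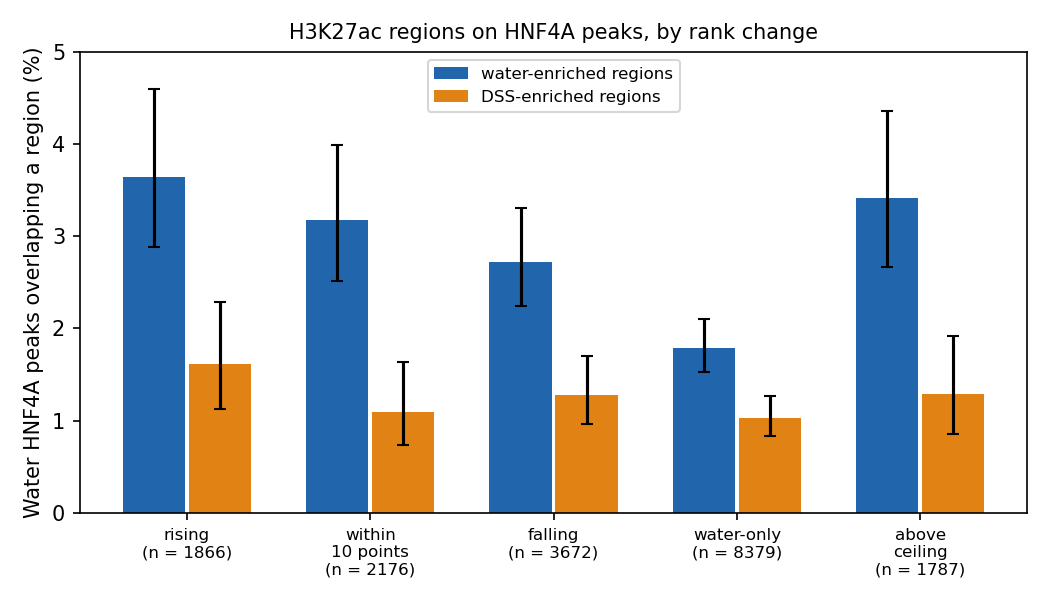
Share of water HNF4A peaks that overlap an H3K27ac region of the water-enriched (blue) or DSS-enriched (orange) list (vertical axis, percent, bars from 0) by class of peak, with Wilson 95% intervals. Rising peaks reach 3.64% and 1.61%, and their intervals overlap those of falling peaks but not, for water-enriched regions, those of water-only peaks.

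Seen from the regions, the shares of rising HNF4A peaks on the H3K27ac lists had overlapping intervals. On water-enriched regions 28.7% of 237 shared peaks under the ceiling were members (interval 23.3 to 34.8), and on DSS-enriched regions 29.7% (30 peaks, 21.7 to 39.2), beside 24.0% of the 7380 on neither (23.0 to 24.9). The shares that fell were 42.2% (36.1 to 48.6) and 46.5% (37.1 to 56.2), beside 47.8% (46.7 to 48.9). The median rank change was -6.5 points on water-enriched and -4.9 points on DSS-enriched regions, beside -8.5 points on neither. In one-to-one pairs 22.4% (16.7 to 29.4) and 24.7% (16.6 to 35.1) were members, beside 19.6% on neither (18.6 to 20.6).

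The members overlapped 74 water-enriched regions, which held between 117 and 1341 nucleosome tags in water (median 333.0) and between 42 and 692 in DSS (median 199.0). Their median log2 ratio of DSS to water, scaled by the library totals, was -0.88 (quartiles -1.02 and -0.68). More than 2-fold fewer tags in DSS were found in 22 (29.7%, interval 20.5 to 40.9), where the whole list has 40.1%. On the 112 water-enriched regions with falling peaks the median log2 ratio was -0.79 and 22.3% (15.6 to 30.9) differed more than 2-fold. The intervals of these shares overlap, some regions carry peaks of both classes, and some regions overlap each other. The authors chose the regions on these tags, so the direction is given by the list.

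The members overlapped 31 DSS-enriched regions, with between 17 and 491 nucleosome tags in water (median 86.0) and between 46 and 733 in DSS (median 173.0). Their median log2 ratio was 0.77 (quartiles 0.58 and 1.43), and 12 (38.7%, 23.7 to 56.2) held more than 2-fold more tags in DSS, where the whole list has 71.5%. DSS-enriched regions with falling peaks had a median of 1.02, and 54.0% of 50 (40.4 to 67.0) passed 2-fold. Regions of this list without any HNF4A peak had lower counts in water (median 31.0 tags) and a median log2 ratio of 1.52.

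**Figure D5:**
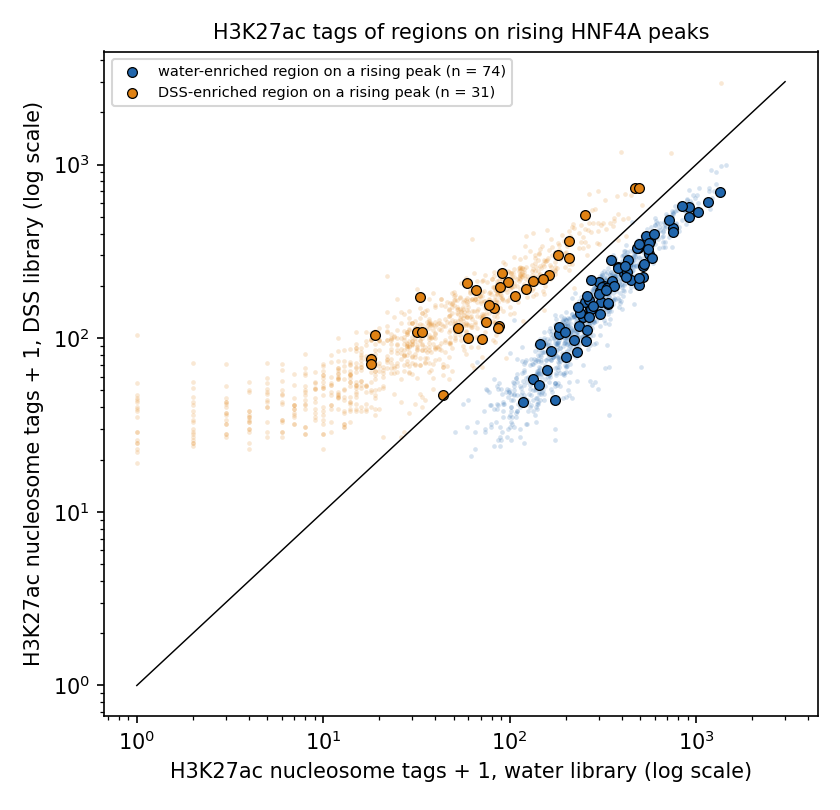
H3K27ac nucleosome tags plus 1 of each deposited region in the water library (horizontal axis, log scale) and the DSS library (vertical axis, log scale), with the line of equal counts. Outlined points are the 74 water-enriched and 31 DSS-enriched regions on rising HNF4A peaks; the DSS-enriched ones lie towards the higher water counts of their list, with none below 17 tags in water.

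Among water-enriched regions on members, the one of largest deposited score lay on chromosome 3 (96379106 to 96379671), with 1341 tags in water and 692 in DSS. Its member (96378807 to 96379406) gained 83.3 points but was a flanking peak, centred 598 bp from a DSS peak that a water peak at percentile 88.7 also overlapped. On chromosome 9 a one-to-one member (93942845 to 93943444, percentiles 75.7 and 90.8, gain 15.1) lay on overlapping regions with 1157 and 1027 tags in water against 608 and 535 in DSS, which is 1.94-fold (1.76 to 2.14) and 1.95-fold (1.76 to 2.17) higher in water. Another one-to-one member of chromosome 9 (88169438 to 88170037, scores 9.05 and 16.6, gain 30.7) lay on regions with 579 and 755 tags in water against 290 and 408 in DSS, 2.03-fold (1.76 to 2.35) and 1.88-fold (1.67 to 2.13) higher in water. At both chromosome 9 sites HNF4A gained rank where H3K27ac was lower in DSS.

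Among DSS-enriched regions on members, the one of largest score lay on chromosome 4 (95067701 to 95068286), with 32 tags in water and 171 in DSS, a ratio of 5.25 (3.58 to 7.91). Its one-to-one member (95067667 to 95068266) went from a score of 7.59 (percentile 29.6) to 12.1 (percentile 58.1), and the peak centres were 0 bp apart. Here both readouts were higher in DSS. On chromosome 2 (146391766 to 146392271) the counts were 90 and 235 (ratio 2.56, 2.00 to 3.31), with 2 members, of which the one with the larger gain moved up 25.9 points beside a water peak at percentile 51.8. On chromosome 15 (7573376 to 7573961) they were 81 and 148 (ratio 1.79, 1.36 to 2.38) under a one-to-one member that gained 11.2 points. On chromosome 19 (61341141 to 61341711) they were 470 and 731 (ratio 1.53, 1.36 to 1.72) under a flanking member. On chromosome 16 (76415946 to 76416536) nucleosome tags did not differ beyond counting error (87 and 117, ratio 1.32, 0.992 to 1.76), while linker tags were 71 in water and 23 in DSS. The one-to-one member there (76415572 to 76416171) went from percentile 76.0 in water up 19.0 points.

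Members were spread over all 20 chromosomes in similar shares. They made up between 20.7% (chromosome 19) and 28.3% (X chromosome) of the shared peaks under the ceiling, and the interval held the overall share on 20 of 20 chromosomes. The nearest other shared peak, on other water and DSS peaks, had a higher percentile in DSS for 31.7% of members (29.7 to 33.9), 31.5% of falling peaks (30.1 to 33.1) and 31.6% of peaks within 10 points (29.7 to 33.6). Within 10 kb these shares were 31.7% of 464 members (27.6 to 36) and 28.0% of 977 falling peaks (25.3 to 30.9). That difference was 3.64 points (-1.36 to 8.79). The share whose nearest peak within 10 kb gained 10 points or more was 19.2% of rising (15.9 to 23.0) and 14.5% of falling peaks (12.5 to 16.9), a difference of 4.65 points (0.577 to 9.0). In one-to-one pairs this difference was 4.15 points (-0.692 to 9.55), and at any distance it was 0.523 points over all pairs (-1.58 to 2.69). Of peaks within 10 points, 16.3% (13.6 to 19.5) had such a neighbour within 10 kb. Rising peaks differed from these by 2.84 points (-1.73 to 7.54). Close neighbours can count each other, so these intervals are too narrow. The share with a DSS-only peak within 10 kb was 5.09% of members (4.18 to 6.18) and 5.09% of falling peaks (4.43 to 5.85).

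Runs of members were short. Another member lay within 10 kb of 18.5% of members (16.8 to 20.3), but this share came largely from peaks on the same DSS peak: with each DSS peak used once it was 5.82% (4.69 to 7.19). A member lay as near to 14.2% of peaks within 10 points, 9.80% of falling peaks and 9.66% of all water peaks. In one-to-one pairs the shares near any member were 6.21% of rising and 5.73% of falling peaks. That difference was 0.479 points (-1.06 to 2.20). Linked at gaps of up to 50 kb, the members formed 1533 groups, of which 1346 held a single DSS peak and 24 held 3 or more. The largest held 4 DSS peaks. The first of these 4 groups, on chromosome 15 (100462906 to 100552933), had 5 members with gains from 11.4 to 55.0 points and 0 falling peaks. That on chromosome 17 (35399513 to 35439182) had 5 members with gains from 10.9 to 40.8 and again 0 falling peaks. That on chromosome 10 (95085714 to 95154500) had 4 members with gains from 11.4 to 46.7, of which 3 were one-to-one, and 1 falling peak. That on chromosome 5 (145056742 to 145121845) had 4 members with gains from 12.0 to 74.9, of which 3 were beside a stronger water peak, and 3 falling peaks. None of these 4 groups held an H3K27ac region of either list, on which few of all members lay (3.64% and 1.61%).

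Runs of clustered H3K27ac regions differed in how many shared HNF4A peaks they held. The run of 6 merged water-enriched regions on chromosome 4 (55616481 to 55731861) contained 8 shared peaks, of which 3 were members, 3 fell and 2 were over the ceiling. Of the 3 members, a one-to-one pair (55637109 to 55637708) went from percentile 9.4 to 40.4. The others, with gains of 19.1 and 89.0 points, were beside a stronger water peak. The runs on chromosome 6 (52198701 to 52248971 in the water-enriched list and 82697666 to 82727341 in the DSS-enriched list) and on chromosome 12 (112666501 to 112676816, DSS-enriched) contained 0 members among 2, 1 and 1 shared peaks. Of the 2 in the water-enriched run, 1 was over the ceiling and could not be a member. Members were 24.2% of all shared peaks under the ceiling, so counts this small do not set these runs apart.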

How the data were processed

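HNF4A peaks were deposited by the authors as 1 list per library, each peak 600 bp wide with a peak score of unstated kind. The submitters' processing notes name MACS2, CASAVA 1.8.2 and build mm9. H3K27ac regions were deposited with raw tag counts per region, MAPQ20 per the file headers, and the score headed NSD. Columns headed WT were read as water. That score rebuilt library totals of 10329416 tags in DSS and 10143920 in water, which scaled the ratios (log2 with a pseudocount of 0.5). For HNF4A no depth can be read from the lists.

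Percentiles used average ranks over each full list. Shares carry Wilson intervals, their differences Newcombe intervals, medians binomial order-statistic intervals and tag ratios exact Clopper-Pearson intervals (scipy 1.17.1, Python 3.11.15). Pairing was tested on simulated DSS peaks placed on isolated water peaks, so pairs beside a stronger water peak were not simulated. The largest overlap of each water peak was also checked by a full search on a chromosome of the deposited lists. HNF4A coordinates are 1-based; H3K27ac coordinates are as deposited. Named members were the 15 of largest gain and the 10 of highest DSS percentile, the first 5 described, those at the limits, the 5 highest-scoring H3K27ac regions per list on members and the 3 largest groups; a chromosome 5 group of equal size and the chromosome 8 peak from 35087686 were added after their values were seen. Members and rules were chosen with earlier results of these data known; one-to-one pairs were added after the data were seen. The annotation used here is not mm9, so peaks were not assigned to genes, the tissue was not checked by marker genes and no sequence was read.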

Additional observations from a re-analysis of the deposited data

How the results depend on the processing

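No paired analysis was possible because each group held 1 library. The number of members changed by more than 1.5 times with a limit of 20 points (1175), with percentiles among shared pairs alone (2935) and with one-to-one pairs (1159). The median gain was 34.1 points with the limit of 20 points, 25.9 at equal list lengths, 26.3 among shared pairs alone, 23.4 with an overlap of at least 300 bp, 21.6 with each DSS peak used once, 21.4 without members beside a stronger water peak and 21.7 in one-to-one pairs. In the same order the median distance between centres was 65, 30, 38.0, 39.0, 30, 30.5 and 30 bp, and it was 40.5 bp without the lowest 10% of each list. Another member lay within 10 kb of 15.1%, 16.0%, 23.4%, 15.6%, 5.82%, 5.52% and 4.83% of members, and of 16.3% without the lowest 10%; within 5 and 50 kb the shares were 15.4% and 32.1%. A DSS-only peak lay within 10 kb of 8.99% of members at equal list lengths, where the shorter water list leaves more DSS peaks alone, and within 5 and 50 kb of 2.20% and 18.4%. Within 2 kb of water-enriched and DSS-enriched H3K27ac regions lay 4.72% and 3.43% of members. The difference between rising and falling peaks on water-enriched regions, 0.921 points, was 1.02 points without crowded windows and 1.21 points without the lowest 10%, with intervals off 0. For these changes the cause was not tested beyond what the construction of each setting gives. The median rank change over all shared peaks, -8.3 points, reversed to 4.0 at equal list lengths and 2.1 among shared pairs alone, and was -9.1 with an overlap of at least 300 bp, -10.6 with each DSS peak used once, -11.2 without peaks beside a stronger one and -10.8 in one-to-one pairs. No named gain and no difference between rising and falling peaks changed sign where a value was left. Of 23 named members, 18 had no value at equal list lengths, 16 with an overlap of at least 300 bp and 15 without the lowest 10%. With each DSS peak used once, without members beside a stronger peak and in one-to-one pairs, 22 of the 23 had none. Counts, shares and distances have no sign that could reverse. The setting without members beside a stronger peak, the one-to-one setting and one that left out the first 200 kb of each chromosome's listed sequence were chosen after seeing the data. The counts of members on H3K27ac regions, 68 and 30, limit how small a difference between classes could be seen.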
